A study of Rattus norvegicus with 105 samples.

Results

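Frontal cortex RNA from rats given clozapine at the medium dose level was compared directly with RNA from rats given haloperidol at the medium dose level. The 18 arrays, 9 for each drug, were all the arrays that the labels place in these groups, out of 105 arrays in a series with 3 experiments and 11 groups. Each array was an Affymetrix rat expression array hybridised with total RNA. The neuroleptic experiment, named in the series title as chronic administration, also held 9 vehicle arrays, 10 low and 8 high clozapine arrays, and 9 arrays each at low and high haloperidol. The labels give the dose levels as words, without amounts, so a medium level of 1 drug cannot be read as an equal amount of the other. Strain, sex, age, duration and route were not given in the sources used here, and the labels do not tie each array to its own animal. The p-values below therefore reflect how far these arrays scatter, which may include technical scatter. In bulk tissue, fewer cells of a type and less RNA per cell cannot be told apart.

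Haloperidol, a butyrophenone, is a typical antipsychotic that acts chiefly as an antagonist of D2-type dopamine receptors. Clozapine, a dibenzodiazepine, is an atypical antipsychotic that binds D2-type receptors less tightly and also blocks serotonin, adrenergic, muscarinic and histamine receptors. In cortex, neuronal activity and receptor signalling through cyclic AMP and MAP kinase switch on immediate early genes such as Fos, Arc and the Egr family within minutes, whereas levels of receptor and channel mRNAs usually move more slowly.

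On the filter on level, all 17 pyramidal neuron and layer markers on the array, and all 12 pan-neuronal markers, were among the 60% of probe sets with the highest mean intensity. So were 11 of 14 striatal markers and 13 of 17 meningeal, fibroblast and choroid plexus markers on the array, so the filter does not set cortex apart from these. Those that were not included the striatal markers Adora2a, Isl1 and Gpr6 and the choroid plexus markers Ttr, Kl and Folr1. No 2 arrays held identical values (0 pairs), and the highest correlation of log2 values between 2 arrays was 0.969. The mean correlation of an array with the other 62 arrays of the experiment had a median of 0.955. The threshold, set at 3 scaled median absolute deviations under the median, was 0.948. Haloperidol high array 8, at 0.945, and haloperidol medium array 8, at 0.946, lay below it, and haloperidol medium array 9 was close to it at 0.949. The sample numbers in the titles run on without a gap. They were cut here into 4 runs, called rounds, at 2 to 17, 18 to 31, 32 to 43 and 44 to 64. The labels do not mark these rounds or say whether they are batches, so values by round rest on this division. Each round holds both drugs at the medium level. Haloperidol medium arrays 8 and 9 are the only medium haloperidol arrays of round 4, which also holds haloperidol high array 8. The first principal component of the 18 arrays held 26.6% of the variance, of which 64.2% lay between rounds and 6.30% between drugs.

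No probe set passed the test between medium clozapine and medium haloperidol. Of 18625 probe sets tested with limma on log2 intensity, 0 (0%) had a Benjamini-Hochberg adjusted p under 0.05, and the smallest adjusted p was 0.745. At an unadjusted p under 0.05, limma gave 1119 probe sets (6.01%), of which 668 (3.59%) were higher and 451 (2.42%) lower with clozapine. With the rounds as a block, limma again called 0, with a smallest adjusted p of 0.198, and 2264 probe sets (12.2%) had an unadjusted p under 0.05. Without the 2 arrays of low mean correlation, limma gave 916 (4.92%) at this unadjusted p. It called 0, with a smallest adjusted p of 0.937. Without haloperidol medium arrays 8 and 9, 633 of the 18625 probe sets had an unadjusted p under 0.05, a smaller share again, and 0 were called. Most differences were small: the median absolute log2 difference was 0.074 and its 95th percentile 0.283, with a median standard error of 0.103. Of the 18625 probe sets, 40 were more than 0.5 higher and 83 more than 0.5 lower with clozapine. All differences below are log2 intensity with clozapine minus that with haloperidol, given with the standard error of the fit, and every named gene is given as a value that did not pass the test.

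Dnlz, a zinc finger protein of mitochondria, was the only probe set whose 2 groups did not overlap, 1 of 18625 (0.00537%), and it was named after its values were seen. Its log2 intensity ran from 11.50 to 11.76 (median 11.58) with clozapine and from 11.22 to 11.46 (median 11.38) with haloperidol, against a vehicle mean of 11.42. Every clozapine array was thus above every haloperidol array. The difference was 0.23 ± 0.073 (limma adjusted p = 0.745), and the value was 0.11 at the low and 0.12 at the high dose level. Within the 4 rounds it was 0.14 to 0.33, and its sign there was fixed by the lack of overlap. Whether chance alone gives 1 such probe set among 18625 was not tested.

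The 12 named genes with the smallest p among those higher with clozapine differed by 0.14 to 0.58, all with an adjusted p of 0.745 (limma). Pdcd6, a calcium-binding adaptor of membrane trafficking, ran from 13.41 to 13.55 (median 13.44) with clozapine and from 13.20 to 13.45 (median 13.27) with haloperidol. All 9 clozapine arrays were above the haloperidol mean and 4 were above every haloperidol array, a difference of 0.17 ± 0.044. Atp2b1, a plasma membrane calcium pump, ran from 12.81 to 13.76 (median 13.43) with clozapine and from 12.63 to 13.12 (median 12.87) with haloperidol. All but clozapine array 1 (8 of 9) lay above every haloperidol array, and the difference was 0.52 ± 0.15. Its 2 other probe sets tested lay between -0.059 and 0.11.

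Banp, a DNA-binding nuclear protein, ran from 9.83 to 10.84 (median 10.60) with clozapine and from 9.55 to 10.34 (median 10.20) with haloperidol. Clozapine array 1 was again the low one, 7 of 9 clozapine arrays lay above every haloperidol array, and the difference was 0.43 ± 0.12. Calcrl, a receptor component for calcitonin gene-related peptide and adrenomedullin, ran from 9.11 to 9.84 (median 9.58) against 8.41 to 9.63 (median 9.06), a difference of 0.52 ± 0.14. The groups overlapped, with 1 clozapine array above every haloperidol array, and its other probe set gave -0.074. B3gat2, a glucuronyltransferase of cell surface glycans, had a difference of 0.58 ± 0.17 that was -0.17 within round 2 and 1.33 within round 4.

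Pdzd8, a lipid-transfer protein of endoplasmic reticulum contacts, had a narrower spread, from 12.37 to 12.60 (median 12.52) with clozapine and from 12.17 to 12.41 (median 12.31) with haloperidol. Its difference was 0.19 ± 0.052, positive in all 4 rounds (0.12 to 0.25), with 6 of 9 clozapine arrays above every haloperidol array. The integrin adaptor Fermt2 differed by 0.23 ± 0.061, the transcriptional regulator Emsy by 0.34 ± 0.092 and the nuclear RNA-binding protein Hnrnpu by 0.27 ± 0.071. The 2 other Emsy probe sets lay between -0.19 and 0.16. The 2 other Hnrnpu probe sets lay between -0.19 and 0.0087, so the gene's probe sets disagreed. Rc3h1, which promotes mRNA decay, the chromatin reader Mbtd1 and the ubiquitin ligase scaffold Cul5 had differences of 0.25, 0.27 and 0.14, and the other 2 Mbtd1 probe sets were at -0.059 to -0.048.

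The 12 named genes with the smallest p among those lower with clozapine differed by -0.63 to -0.37, also with an adjusted p of 0.745 (limma). Sptssb, a small subunit of serine palmitoyltransferase, the first enzyme of sphingolipid synthesis, ran from 7.98 to 9.83 (median 9.24) with clozapine and from 9.43 to 10.27 (median 9.78) with haloperidol. All 9 clozapine arrays were below the haloperidol mean, 6 were below every haloperidol array, and clozapine array 9 was far below the rest. The difference was -0.63 ± 0.16, and -0.48 without that array. The other Sptssb probe set was at -0.045. Ddx6, an RNA helicase of processing bodies, ran from 9.70 to 10.50 (median 9.97) against 10.24 to 11.12 (median 10.54), with 7 of 9 clozapine arrays below every haloperidol array. Its difference was -0.58 ± 0.16, and its vehicle mean, 10.06, was near the clozapine mean of 10.03.

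Stox2, a winged-helix protein, had a difference of -0.58 ± 0.17 and Rcor1, a corepressor that works with histone deacetylases, a difference of -0.53 ± 0.16. Their other probe sets were lower as well, at -0.40 and -0.22. The splicing regulator Rbfox2 ran from 12.23 to 12.93 (median 12.46) with clozapine and from 12.44 to 13.43 (median 13.16) with haloperidol, a difference of -0.52 ± 0.16. It was 0.12 within round 1, where clozapine array 1 was the highest of its group, and between -0.93 and -0.57 in the other rounds. Rgs7bp, which anchors RGS proteins at membranes, showed the same array at the top of the clozapine group and differed by -0.38. Hlf, a clock-controlled transcription factor, ran from 12.94 to 13.63 (median 13.33) against 13.37 to 13.98 (median 13.74). All 9 clozapine arrays lay below the haloperidol mean, and the difference was -0.41 ± 0.13. The remaining values were -0.49 for the chromatin remodelling factor Rsf1, -0.37 for the RNA-binding protein Rbm12, -0.50 for Katnbl1, a katanin regulator, -0.42 for the histone methyltransferase Prdm2 and -0.50 for Mga, a partner of Max. The 2 other Rsf1 probe sets were higher with clozapine, at 0.091 to 0.17.

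Over these 24 genes, 96 within-round differences could be computed and 4 had the sign opposite to the pooled value. The genes were ranked by p, so their directions describe how they were chosen. The vehicle mean lay between the 2 drug means for 24 of 24, for 939 of the 1119 probe sets with an unadjusted p under 0.05 (83.9%), and for 37.1% of all probe sets tested. It was nearer the clozapine mean for 18 of the 24. A large difference between the drugs leaves more room between their means, so these shares describe the selected probe sets only.

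Probe sets of the same gene were not always alike. The other probe set was at 0.16 for Fermt2, 0.035 for Rc3h1, 0.21 for Cul5, -0.40 for Stox2, -0.22 for Rcor1 and -0.42 for Mga. The others lay between -0.38 and -0.089 for Ddx6, between -0.24 and -0.17 for Katnbl1, between -0.37 and -0.21 for Prdm2, and between -0.054 and 0.053 for Hlf.

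**Figure D1:**
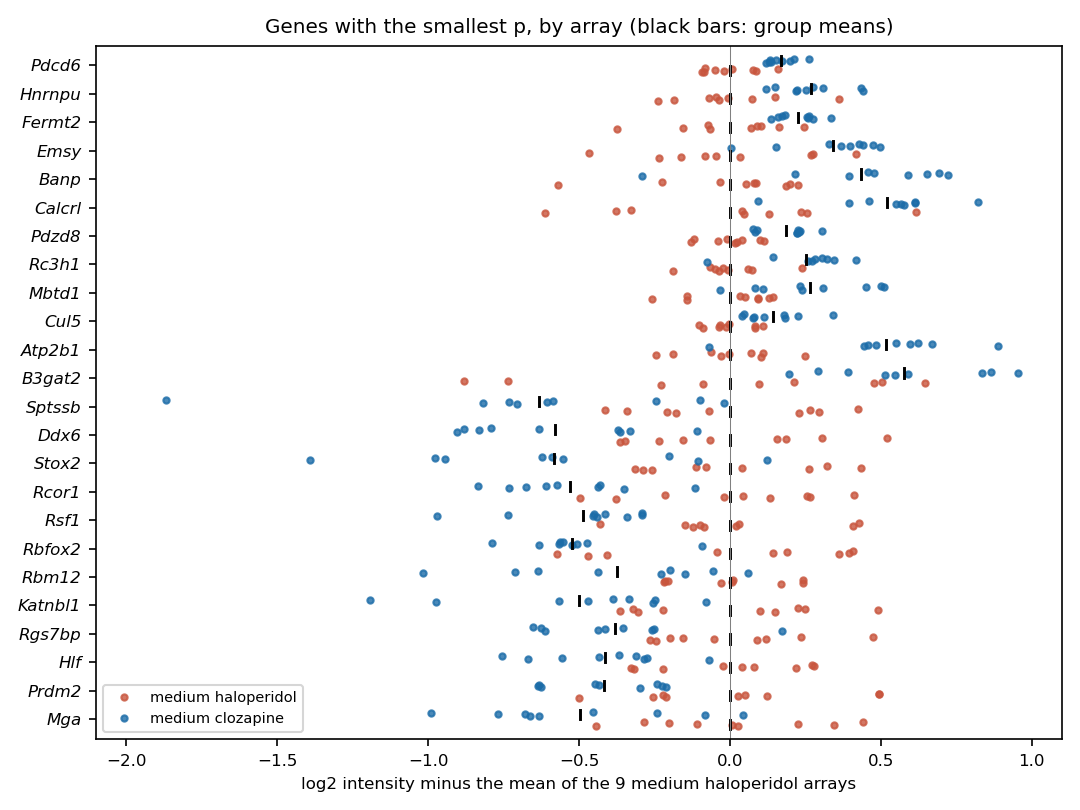
Log2 intensity of each array minus the mean of the 9 medium haloperidol arrays (horizontal axis) for the 24 named genes with the smallest p, 12 in each direction; points are single arrays and black bars are group means. The groups overlap for every gene shown, and the lowest point is clozapine array 9 for Sptssb, whose log2 intensity was 7.98.

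The low and high dose levels gave the same drug contrast in arrays that the medium contrast did not use. At the low level, limma gave 461 probe sets (2.48%) with an unadjusted p under 0.05 and 0 called. At the high level it gave 2122 (11.4%) and 0 called, with a smallest adjusted p of 0.0601. Round 3 held high clozapine arrays but no high haloperidol array, so drug and round are not balanced in the high contrast. With the rounds as a block, limma gave 942 (5.06%) at the low level and 1711 (9.19%) at the high level. It again called 0 at both, with a smallest adjusted p of 0.333 (low) and 0.116 (high). The high level includes haloperidol high array 8, of low mean correlation. Without the 2 arrays of low correlation, limma gave 1874 (10.1%) at the high level and 0 called, with a smallest adjusted p of 0.0687. Of the 1119 probe sets with an unadjusted p under 0.05 at the medium level, 834 (74.5%) had the same sign at the low level, 962 (86.0%) at the high level and 729 (65.1%) at both. Over all probe sets tested the shares were 57.9%, 68.3% and 40.4%. With the rounds as a block, 2264 probe sets had an unadjusted p under 0.05 at the medium level (limma). Of these, 75.8% had the same sign at the low level and 79.6% at the high level, beside 61.5% and 62.9% over all. Without the block, Pearson's r between the medium and the other differences was 0.59 (low) and 0.77 (high) over the 1119 probe sets, and 0.28 and 0.54 over all 18625. With the block it was 0.62 and 0.68 over the 2264, and 0.38 and 0.45 over all. These correlations run across probe sets, which share arrays, normalisation and rounds and are not independent replicates. Of the 20 probe sets with the smallest p, 19 had the same sign at the low level and 19 at the high level, and 10 of the 20 had a single gene symbol.

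Single genes differed in how they carried over. Atp2b1 was 0.087 at the low level and 0.58 at the high level, Fermt2 was 0.081 and 0.22, and Emsy was 0.18 and 0.35. Katnbl1 was -0.23 and -0.58, Rbfox2 was -0.26 and -0.49, and Rsf1 was -0.11 and -0.37. Mga, by contrast, was -0.025 and -0.11, and Rbm12 was -0.19 at the low level and 0.059 at the high level. The interaction tests called 0 probe sets for medium minus low and 0 for medium minus high (limma), with 362 (1.94%) and 377 (2.02%) at an unadjusted p under 0.05. No gene was thus shown to change its difference between the drugs from 1 dose level to another. Dose levels of the same drug were not tested against each other.

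**Figure D2:**
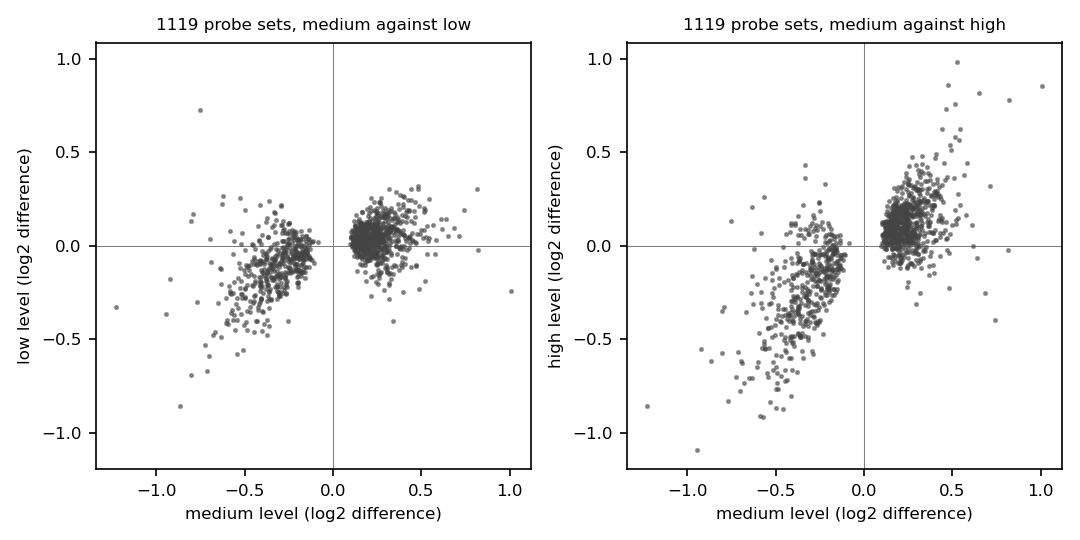
Log2 difference, clozapine minus haloperidol, at the low (left) and high (right) dose level against that at the medium level, 1 point for each of the 1119 probe sets with an unadjusted p under 0.05 at the medium level. The empty band at the centre of the horizontal axes comes from choosing probe sets by p, and 74.5% of points on the left and 86.0% on the right have the same sign on both axes.

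Immediate early genes were higher with clozapine as values, without passing the test. Of 32 listed, 29 were on the array and 23 passed the filter on level, of which 17 were higher and 6 lower, with a median difference of 0.12. Over all 10128 genes tested, 1 probe set each, 56.7% were higher and the median was 0.015. At an unadjusted p under 0.05, 4 of the 23 were higher, beside 3.38% of all genes, and 1 was lower, beside 1.55%. These were Fos, Arc, Junb and Gadd45b above and Jund below, and limma called 0. The list was chosen with earlier results of these data known and its genes share arrays, so these shares are a description only. At the low level 12 of the 23 were higher (median 0.00039) and at the high level 4 of the 23 (median -0.050). Within rounds, the mean difference of the list was 0.21, 0.18, -0.075 and 0.34.

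Fos, a subunit of the AP-1 transcription factor, ran from 11.11 to 12.63 (median 12.12) with clozapine and from 10.35 to 11.92 (median 11.36) with haloperidol, against a vehicle range of 8.46 to 11.93. The medium clozapine group had the highest mean of the 7 groups, 11.97 ± 0.49 (SD, n = 9), followed by medium haloperidol at 11.23 ± 0.52 (SD, n = 9), with vehicle lowest at 9.95 ± 1.15 (SD, n = 9). Between the 2 medium groups the difference was 0.74 ± 0.36, 1.67-fold (limma adjusted p = 0.82). It was 0.19 at the low level and -0.40 at the high level, and -0.11 within round 3 against 0.78 to 1.19 in the other rounds. The medium difference exceeded the high one by 1.14 ± 0.51 (limma unadjusted p = 0.0312, adjusted p = 0.9995).

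Arc, a cytoskeletal protein of active synapses, ran from 10.84 to 13.54 (median 12.42) with clozapine and from 11.00 to 12.74 (median 11.79) with haloperidol. The lowest clozapine array lay below every haloperidol array, whereas 3 of 9 lay above all of them. The difference was 0.62 ± 0.28 (limma adjusted p = 0.814), and 0.42 without haloperidol arrays 8 and 9. Arc means were 10.91 with vehicle, 11.43, 12.37 and 11.45 at low, medium and high clozapine, and 11.34, 11.75 and 11.46 at low, medium and high haloperidol. The medium groups thus had the 2 highest means.

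Junb, another AP-1 subunit, and Egr2, a zinc finger transcription factor, were named after their values were seen. Junb ran from 10.21 to 12.19 (median 11.46) against 9.96 to 11.79 (median 11.02), a difference of 0.43 ± 0.20 that was 0.22 without haloperidol arrays 8 and 9. Egr2 ran from 10.28 to 11.67 (median 11.08) against 9.78 to 11.19 (median 10.62), a difference of 0.57 ± 0.35. It was -0.46 within round 3 and -0.42 at the high level. Gadd45b, a stress- and activity-induced gene, was 0.39 ± 0.15 higher, with the same sign in all 4 rounds (0.16 to 0.59) and at the high level (0.33). Egr1, a zinc finger factor of the same family as Egr2, ran from 14.28 to 15.18 (median 14.79) and from 14.42 to 15.09 (median 14.88), and the groups covered nearly the same range. Its difference was -0.045 ± 0.17 (95% interval -0.39 to 0.30).

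Homer1, a postsynaptic scaffold whose short activity-induced form competes with the long forms, was read by 5 probe sets that disagreed. The probe set with the largest difference ran from 11.13 to 12.68 (median 11.96) with clozapine and from 10.81 to 11.78 (median 11.42) with haloperidol. Its difference was 0.48 ± 0.20 (limma adjusted p = 0.81), with -0.41 within round 3 and -0.22 at the high level. The other 4 probe sets lay between -0.16 and 0.047. The sources used here do not state which form each probe set reads. Bdnf, a neurotrophin induced by activity, was 0.21 ± 0.12 higher.

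**Figure D3:**
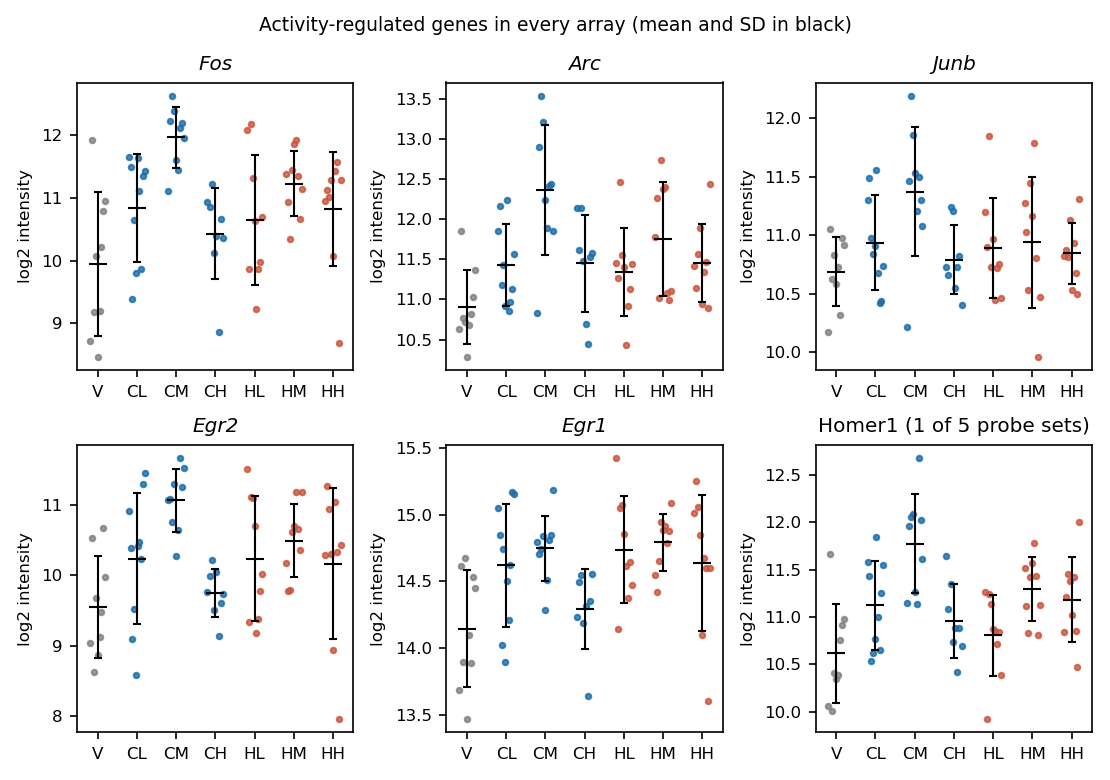
Log2 intensity of 6 activity-regulated genes in all 63 neuroleptic arrays; V is vehicle, C clozapine and H haloperidol, with L, M and H for the low, medium and high level, points are arrays, and black marks give mean and SD. The medium clozapine mean for Fos, 11.97, is the highest of the 7 groups, and the medium groups overlap in every panel.

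The start regions of Egr1, Egr2 and Junb are shown because the Egr genes belong to 1 family and had differences of 0.57 (Egr2) and -0.045 (Egr1). Each is the 250 bases before the RefSeq start in build GRCr8, 5′ to 3′ on the gene's strand: chr18:26736828-26737077 (plus strand) for Egr1, chr20:21054442-21054691 (minus strand) for Egr2 and chr19:40080876-40081125 (plus strand) for Junb. Capitals mark the core of the cyclic AMP response element, TGACG, on either strand and the CArG box, the site of serum response factor.
Egr1: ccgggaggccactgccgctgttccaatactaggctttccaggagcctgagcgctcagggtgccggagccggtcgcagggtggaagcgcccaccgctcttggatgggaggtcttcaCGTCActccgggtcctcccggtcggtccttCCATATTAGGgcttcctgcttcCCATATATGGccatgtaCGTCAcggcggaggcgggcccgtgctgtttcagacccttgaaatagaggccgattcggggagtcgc
Egr2: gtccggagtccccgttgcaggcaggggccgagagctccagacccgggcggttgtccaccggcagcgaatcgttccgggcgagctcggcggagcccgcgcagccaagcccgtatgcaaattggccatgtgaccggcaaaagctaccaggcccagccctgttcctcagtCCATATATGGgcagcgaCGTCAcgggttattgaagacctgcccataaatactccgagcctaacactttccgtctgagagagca
Junb: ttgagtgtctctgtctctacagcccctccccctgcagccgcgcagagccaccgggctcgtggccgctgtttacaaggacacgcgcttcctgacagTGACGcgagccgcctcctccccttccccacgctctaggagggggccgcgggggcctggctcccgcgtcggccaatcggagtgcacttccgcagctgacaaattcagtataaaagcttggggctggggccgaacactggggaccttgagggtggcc
Egr1 held 2 such cores, starting at positions -135 and -66 from the gene's start, and 2 CArG boxes, at -105 and -83. Egr2 held a core at -66 and a CArG box at -83, the same positions as in Egr1, and Junb a core at -155. Of 33469 RefSeq windows of this length, 18.2% held the core, 1.59% the full element TGACGTCA, which contains the core, and 1.5% a CArG box. A match is a description of letters in the window and was not set against binding.

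The receptors that the drugs bind showed small differences, none of which passed the test. Of 17 receptor genes, 12 passed the filter on level. Drd2, the main target of haloperidol, ran from 8.60 to 9.95 (median 9.26) with clozapine and from 8.70 to 9.51 (median 9.33) with haloperidol, a difference of 0.0093 ± 0.15 (95% interval -0.30 to 0.32). Htr2a, a main serotonin target of clozapine, ran from 11.61 to 12.79 (median 11.95) and from 11.57 to 12.41 (median 12.12), a difference of -0.014 ± 0.14 (95% interval -0.29 to 0.26). The groups overlapped throughout for both. Drd1 was at -0.068 ± 0.14, Htr2c at -0.071 ± 0.16 and Chrm1 at 0.081 ± 0.20. The largest values were 0.26 ± 0.21 for the muscarinic receptor Chrm4 (-0.22 within round 1, 0.88 within round 4), 0.23 ± 0.14 for the serotonin receptor Htr1a and 0.20 ± 0.17 for the adrenergic receptor Adra1b. For Htr1a, haloperidol arrays 8 and 9 were the lowest of their group, at 9.19 and 9.34. For Adra1b, both clozapine arrays of round 1 (11.60 and 11.50) lay below every haloperidol array of that round. In round 4, every clozapine array lay above haloperidol arrays 8 and 9 (11.67 and 11.46). The histamine receptor Hrh1 was at 0.10 ± 0.086, and Htr7, Adra2a and Chrm3 lay between 0.0098 and 0.081. Over the wider lists, 3 of 5 serotonin receptor genes tested were higher (median 0.0098) and 6 of 10 adrenergic, muscarinic and histamine receptor genes (median 0.058), with the histamine receptor Hrh3 at -0.16. Drd3, Drd4, Htr6, Adra1a and Chrm2 did not pass the filter and were not tested.

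Downstream signalling and synaptic lists gave small medians of mixed sign. Of 14 dopamine receptor and signalling genes tested, 7 were higher and 7 lower (median -0.022), and the members with the smallest p were the calcium buffer Calb1 at 0.13 and the G protein subunit Gng7 at -0.22. Among 17 genes of Akt, Gsk3 and Wnt signalling, 7 were higher and 10 lower (median -0.040). Ctnnb1, which encodes beta-catenin, ran from 15.10 to 15.98 (median 15.23) with clozapine and from 15.34 to 15.99 (median 15.72) with haloperidol. All but clozapine array 1 (8 of 9) lay below every haloperidol array, and the difference was -0.36 ± 0.15. Its other 2 probe sets lay between 0.040 and 0.32, so the gene's probe sets disagreed. The kinase Akt2 was at 0.16. Of the MAP kinase feedback and Ets genes, 8 of 13 were higher (median 0.027), with Etv1 at 0.19 and Etv5 at -0.21. The 4 other Etv1 probe sets lay between -0.56 and 0.029, so not all had its sign, and the other Etv5 probe set was at -0.087.

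For glutamate, 5 of 13 ionotropic receptor genes were higher (median -0.029), with the AMPA receptor subunit Gria1 at -0.18 and the NMDA receptor subunit Grin3a at -0.28. Of the metabotropic receptor and glutamate cycle genes, 9 of 12 were higher (median 0.074), with Grm7 at 0.13, yet Grm5 had the most negative value. Grm5 ran from 11.30 to 12.30 (median 11.57) with clozapine and from 11.44 to 12.64 (median 12.35) with haloperidol, a difference of -0.49 ± 0.21. It was 0.41 within round 1 and between -1.03 and -0.77 in the others, and its other probe set was at -0.092. Of the GABA genes 8 of 15 were higher (median 0.0054), with the vesicular transporter Slc32a1 at -0.13. Gabrb1, a GABA-A receptor subunit, ran from 12.72 to 13.49 (median 13.14) against 12.57 to 13.08 (median 12.78), a difference of 0.31 ± 0.10 with the same sign in all 4 rounds. It was 0.38 at the high level and 0.040 at the low level. Of 14 interneuron genes 9 were higher (median 0.058), led by the peptides Npy at 0.15 and Tac1 at 0.23.

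Of the synaptic genes, 9 of 22 release genes (median -0.023) and 6 of 20 postsynaptic density genes (median -0.023) were higher with clozapine. Within round 2 their mean differences were 0.13 and 0.096, and within the other rounds between -0.20 and -0.013. At the high level 12 of 22 release genes (median 0.012) and 10 of 20 postsynaptic density genes (median -0.0080) were higher. Cplx2, a complexin that clamps vesicle fusion, ran from 12.71 to 13.29 (median 13.01) with clozapine and from 13.03 to 13.74 (median 13.30) with haloperidol. All 9 clozapine arrays were below the haloperidol mean, and the difference was -0.35 ± 0.12, negative in all 4 rounds. Begain and Dlg2, postsynaptic scaffold proteins, were at -0.32 and -0.21, and each had 1 round of the other sign (0.68 and 0.49 within round 2). The vesicle protein Syn1 was at -0.21. Of voltage-gated channel genes 10 of 25 were higher (median -0.028), with Kcna1 at 0.20 and Scn2b at -0.14. RGS genes split 7 and 7 (median 0.0024), with Rgs2 at 0.10 and Rgs10 at 0.089. Calcium-calmodulin kinase and calcineurin genes split 6 higher and 8 lower (median -0.0072), with the calcineurin subunit Ppp3cc at 0.31 and the kinase Camkk2 at -0.28. The other Camkk2 probe set was at 0.24, of the opposite sign. Of neurotrophin, neuregulin and receptor genes 4 of 10 were higher (median -0.044), with Nrg1 at -0.28.

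Metabolic and housekeeping lists are read beside all genes tested, of which 56.7% were higher, with a median of 0.015. Of 45 respiratory chain subunit genes, 36 were higher, with a median of 0.050, and 36 and 31 of them were higher at the low and high levels. The succinate dehydrogenase subunit Sdhb was at 0.10 ± 0.048, positive in all 4 rounds (0.059 to 0.12), and the ATP synthase subunit Atp5po at 0.21 ± 0.097. Cytosolic ribosomal protein genes were higher in 18 of 23 (median 0.036), with Rps24 at 0.088 and Rps9 at 0.092, and proteasome genes in 20 of 30 (median 0.028), with Psmb7 at 0.13 and Psmc4 at 0.091. The mean proteasome difference was 0.012, and within rounds it was 0.068 in round 1 and between -0.021 and -0.014 in the others. Heat shock and unfolded protein genes were higher in 18 of 24 (median 0.028), led by the disulfide isomerase Pdia4 at 0.25 ± 0.094, whose value was 0.63 in round 4 and 0.045 to 0.22 in the others, and Sdf2l1 at 0.15. Sterol and fatty acid synthesis genes were higher in 19 of 32 (median 0.017), close to the values over all genes. Idi1 and Mvk, enzymes of the mevalonate pathway, were at 0.20 and 0.19, each with the same sign in all 4 rounds. Clock genes were higher in 11 of 18 (median 0.036), with Bmal1 at 0.16 and Hlf, named above, at -0.41. Glucocorticoid-responsive genes split 7 and 7 (median -0.0018), with Tsc22d3 at -0.18 and Klf9 at 0.075, and histone deacetylases were higher in 7 of 11 (median 0.071), with Hdac7 at -0.28 and Hdac2 at -0.17.

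Cell type markers were compared as levels centred on the 18 arrays, and their part in the gene differences was not tested. Pan-neuronal markers were lower with clozapine in 11 of 12 genes, with a median of -0.055, and Map2 at -0.14 and Uchl1 at -0.072. Their mean centred level ran from -0.12 to 0.084 over the clozapine arrays and from -0.066 to 0.18 over the haloperidol arrays, so the groups overlapped. Its difference was -0.14 within round 1 and between -0.055 and 0.014 within the others. Pyramidal neuron markers split 9 and 8 (median 0.0096), with the layer gene Rorb at -0.42. Oligodendrocyte markers were higher in 14 of 18 (median 0.051), with centred levels from -0.14 to 0.18 with clozapine and from -0.32 to 0.16 with haloperidol, and with Cspg4 at 0.18 and Car2 at 0.12. Astrocyte markers were higher in 9 of 14 (median 0.035), with Acsl6 at 0.18 and Aldoc at 0.068, and microglial and immune markers in 8 of 14 (median 0.034), with Laptm5 at 0.20 and C1qa at -0.083. Endothelial and mural markers were higher in 10 of 16 (median 0.063), with the receptor Kdr at 0.26 and Tek at 0.16, and meningeal, fibroblast and choroid plexus markers in 3 of 13 (median -0.053), with Igf2 at -0.29 and Enpp2 at 0.051. Striatal markers were higher in 4 of 11 (median -0.046), with Foxp1 at -0.14 and Tac1, named above, at 0.23.

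Of 9 blood markers only Hbb and Alas2 were tested, and 3 more on the array did not pass the filter. Hbb, beta-globin, ran from 15.11 to 16.31 (median 15.63) with clozapine and from 15.02 to 15.55 (median 15.43) with haloperidol, a difference of 0.31 ± 0.26. Alas2, an erythroid heme enzyme, ran from 9.69 to 11.06 (median 9.92) against 8.44 to 10.19 (median 9.65), a difference of 0.44 ± 0.31. Both were close to 0 in rounds 1 and 2, and Alas2 was 1.35 within round 4. At the high level they were 0.61 and 1.03 and at the low level -0.27 and -0.14.

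For the receptor and list genes, the other probe set had the opposite sign for Scn2b (0.11), Rgs2 (-0.060), Idi1 (-0.047), Mvk (-0.026), Klf9 (-0.035), Acsl6 (-0.010), Laptm5 (-0.027) and Chrm3 (-0.084). It had the same sign for Htr2c (-0.047), Hrh3 (-0.17), Syn1 (-0.15), Rorb (-0.14), Car2 (0.083), Map2 (-0.064) and Drd1 (-0.17). Several others lay between 0.096 and 0.14 for Akt2, between -0.27 and -0.029 for Foxp1 and between -0.045 and 0.093 for Htr2a.

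**Figure D4:**
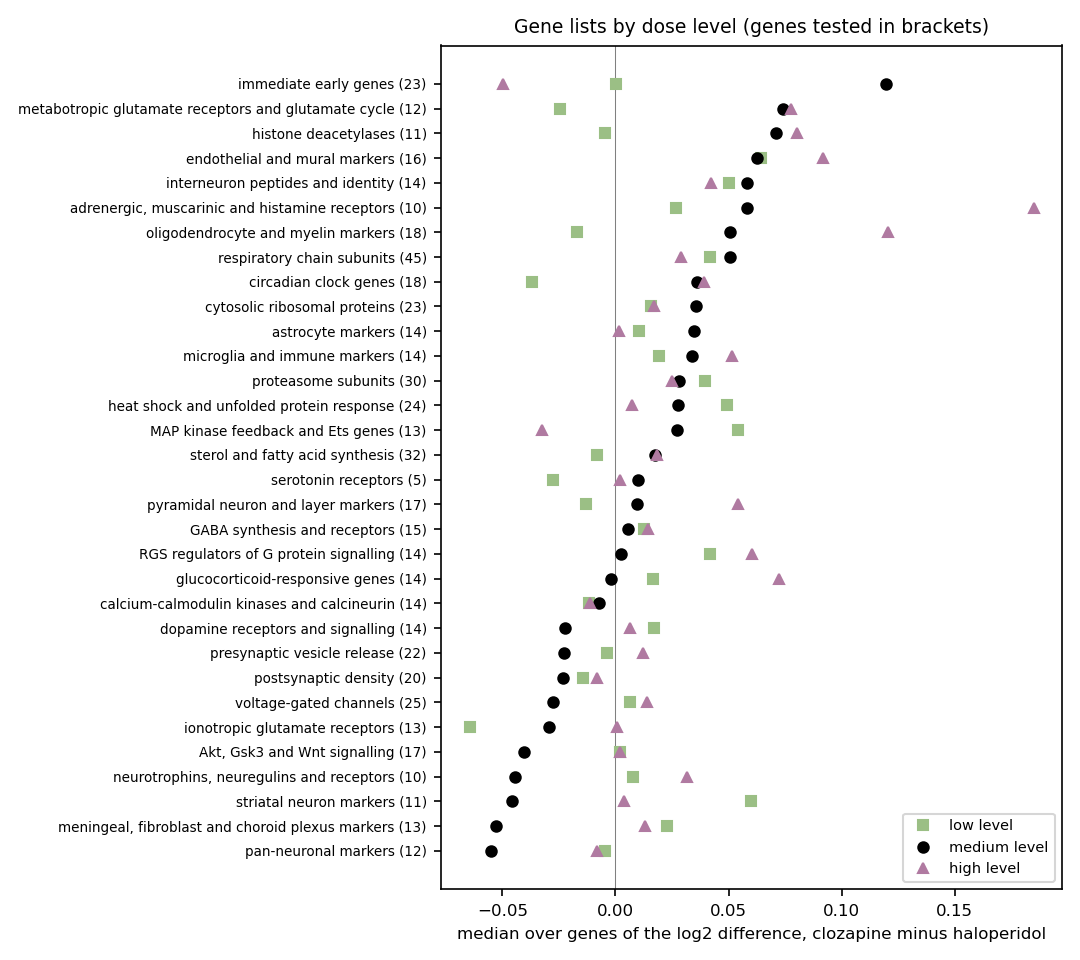
Median over the genes of each list of the log2 difference, clozapine minus haloperidol (horizontal axis), at the low (squares), medium (circles) and high (triangles) dose level, for lists with at least 5 genes tested. Immediate early genes have the highest medium median, 0.12, and a high-level median of -0.050, and pan-neuronal markers have the lowest medium median, -0.055.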

How the data were processed

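Affymetrix intensities of 63 neuroleptic arrays were used as deposited: the authors gave 1 linear intensity per probe set and array. The summarisation method was not given in the sources used here, nor the software or background correction. Scaling is seen in the values, since the mean after trimming 2% at each end was 2500.7 to 2500.8 on every array. Intensities were quantile-normalised over the 63 arrays, raised to a floor of 32 (5.86% of values lay below it) and converted to log2. After leaving out 57 control probe sets, the 60% of 31042 with the highest mean were tested (18625). limma 3.58.1 in R 4.3.3 (lmFit, eBayes) was fitted to the 54 drug arrays with 1 mean for each of 6 groups and no covariate, without vehicle, with Benjamini-Hochberg adjustment over all probe sets tested. The dose-level contrasts and interactions came from the same fit. The fit was tested on simulated data. The number of arrays limits the precision, and the table gave no detection calls. Plots used matplotlib 3.10.9.

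Symbols were those of the platform annotation (20826 probe sets with 1 symbol, 436 with several, 9780 with none), and updating through Entrez identifiers changed 0 symbols. Of several probe sets, the one with the highest mean stood for the gene. Named genes were up to 15 called in each direction, otherwise the 12 with the smallest p, up to 2 of each list, the drug receptors, Fos, Arc, Egr1, Bdnf and every Homer1 probe set, and up to 5 called interactions. The groups, members and lists were chosen with earlier results of these data known. Lists were described by counts and medians, without a test. Sequences came from RefSeq (GRCr8). Alternatives changed the fit, block, normalisation, floor, filter, weights and arrays included.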

Additional observations from a re-analysis of the deposited data

Results flagged for a closer look

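Of 212 groups of 9 arrays examined among the named genes, 17 held an array far from the other 8 relative to the range of the group (Dixon's criterion at the 95% level). Chance gives such a value in about 1 group in 20. Medium clozapine array 1 accounted for 6 of the 17. Its log2 intensity was the lowest of its group for Banp (9.83), Atp2b1 (12.81) and Kcna1 (11.62), and the highest for Rbfox2 (12.93), Rgs7bp (12.84) and Ctnnb1 (15.98). Medium clozapine array 9 was lowest for Sptssb (7.98) and Rgs10 (12.83) and highest for Alas2 (11.06). Medium clozapine array 7 was lowest for Etv5 (11.01) and array 3 highest for Gria1 (12.58).

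In the medium haloperidol group, array 8 was lowest for Bmal1 (10.93) and highest for C1qa (13.09), and array 9 was lowest for Alas2 (8.44). Array 4 was lowest for Chrm3 (11.24) and for a Homer1 probe set (11.48), and array 5 for Klf9 (13.84).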

How the results depend on the processing

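Across the 12 other settings and the 18 fits that each left out 1 medium array, limma called 0 probe sets, with a smallest adjusted p of 0.198. The count at an unadjusted p under 0.05, 1119, was 2264 with the rounds as a block, 1720 with no filter on low values, 739 with the top 40% of probe sets and 633 without haloperidol medium arrays 8 and 9, a setting chosen after seeing the data. The count with no filter is out of 31042 probe sets and that with the top 40% out of fewer than 18625. Neither compares directly with 1119. The counts of the other settings are over the same 18625, and the cause of their change was not tested. Leaving out single arrays gave 801 (without haloperidol array 9) to 1487 (without clozapine array 1). The 24 genes with the smallest p kept their direction and stayed uncalled in all 711 alternatives, while 4 of their 96 within-round values had the other sign. The genes were chosen by p in these arrays, and the alternatives refit mostly the same arrays. Their kept signs are therefore not separate support. For the 82 other named probe sets, 103 of 2772 alternative and within-round values moved by at least the SD within the medium groups. Apart from the within-round values, 47 of their alternatives had another sign. Of 231 list medians under alternatives, 21 had another sign, and the blood marker median, 0.37, was 0.0055 with no filter, which adds 3 genes. The interaction tests called 0 probe sets under each of 3 alternatives. No paired analysis was possible because the labels carry no replicate numbers that the groups share. With 9 arrays a group, differences of the size of the median standard error, 0.103, could not be told from 0, and much larger ones also did not pass. Among these were the 40 probe sets more than 0.5 higher and the 83 more than 0.5 lower with clozapine. The smallest difference that could pass was not measured.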

Other observations

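Shares of probe sets lower with clozapine are given here by annotation, as values with no test. At an unadjusted p under 0.05 at the medium level, 3.86% of 4559 probe sets without 1 symbol were lower and 3.90% higher. Among the 10128 probe sets that represent a gene, 1.55% were lower and 3.38% higher. Among the 3938 other probe sets of a gene, 3.00% were lower and 3.76% higher. At the high level, in other arrays, the shares lower were 8.25%, 3.43% and 5.61% in that order, and at the low level 1.84%, 0.820% and 1.52%. Differences below -0.4 at the medium level numbered 111 among the 4559, 40 among the 10128 and 52 among the 3938. Those above 0.4 numbered 31, 44 and 31. The median log2 intensity was 10.73 without 1 symbol and 10.72 for the other probe sets of a gene, against 11.55 for those that represent a gene. The part of intensity in this pattern was not tested.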
